A study of Mus musculus with 61 samples.

Results

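CaM kinase II and the scaffold of the excitatory postsynapse were followed through 9 genes in fetal mouse brain and liver: the kinase genes Camk2a, Camk2b, Camk2d and Camk2g, and the scaffold genes Dlg4, Shank1, Shank2, Shank3 and Homer1. They were taken by gene symbol from a deposited table of 43346 genes, with earlier results of these data known. All 9 were among the 18655 genes that reached at least 1 TPM (a relative transcript abundance corrected for transcript length) in at least 2 libraries and were tested. The study measured RNA in forebrain, midbrain and hindbrain at E10.5, E11.5, E12.5, E13.5, E14.5, E15.5, E16.5 (embryonic days) and P0 (the day of birth), and in liver at the same stages without E10.5. The 61 libraries form 31 groups of 1 tissue and 1 stage. 30 groups have 2 libraries and the forebrain E10.5 group has 1. The groups carry no treatment or engineered allele, and the strain, the sex and whether a library held 1 embryo or several are not stated in the labels. A p-value here therefore measures the spread between libraries, which may be technical.

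CaM kinase II is a large ring of subunits that is switched on by calcium-bound calmodulin and can then keep itself active by phosphorylating its own subunits. In mature neurons it sits at the postsynaptic density of excitatory synapses, where it phosphorylates glutamate receptors and is needed for long-term potentiation. Camk2a and Camk2b encode the subunits best known from neurons, and the Camk2b product also binds actin filaments. Camk2d and Camk2g encode subunits found in many tissues, among them heart and smooth muscle. The scaffold stacks below the receptors: Dlg4 (PSD-95) holds NMDA receptor tails and adhesion proteins, the Shank proteins form a deeper layer, and Homer1 joins the Shanks to group I metabotropic glutamate receptors.

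Promoter sequence is shown for the gene with the largest rise in brain and for the gene whose change was not called there, so that these 2 can be set side by side. Each is the 250 bases before a RefSeq transcript start (build GRCm38.p6), written 5′ to 3′ on the gene's strand, with the motifs found in capitals. The motifs searched on both strands were the E-box CANNTG, the cyclic AMP response element core TGACG, the GC box GGGCGG and the TATA box TATAAA, and matches may overlap. Camk2b, chr11:6065749-6065998, minus strand, and Homer1, chr13:93303507-93303756, plus strand, read:
Camk2b: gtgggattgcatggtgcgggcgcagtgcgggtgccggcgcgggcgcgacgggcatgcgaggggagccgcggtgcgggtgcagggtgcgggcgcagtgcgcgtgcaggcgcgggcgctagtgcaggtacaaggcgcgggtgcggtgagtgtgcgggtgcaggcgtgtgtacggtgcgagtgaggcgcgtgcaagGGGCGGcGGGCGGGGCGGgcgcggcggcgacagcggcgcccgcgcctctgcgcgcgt
Homer1: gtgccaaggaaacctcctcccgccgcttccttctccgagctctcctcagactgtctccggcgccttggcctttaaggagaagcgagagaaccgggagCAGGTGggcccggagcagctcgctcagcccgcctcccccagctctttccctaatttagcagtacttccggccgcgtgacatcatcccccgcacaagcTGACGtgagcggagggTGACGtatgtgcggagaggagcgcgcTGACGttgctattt

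The Camk2b window held 44 CpG dinucleotides, more than 99.5% of the 32817 windows of that length in the table, whose median was 6. It held 3 GC boxes close to the start and none of the other 3 motifs. The Homer1 window held 21 CpG, 3 cyclic AMP response element cores, 1 E-box and no GC box or TATA box. A second RefSeq start of Homer1 (chr13:93307784-93308033) has a window with 7 CpG, 5 E-boxes and none of the other 3 motifs; its sequence is not shown. Of all windows, 66.2% held an E-box, 17.7% the response element core, 32.7% a GC box and 12.4% a TATA box. Both windows lie inside the gene's span in GENCODE M21 and touch no annotated exon. A match describes letters in this window and says nothing of binding.

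The libraries fell into 2 main classes by 485 rows of short RNAs and pseudogenes, a division noticed in the data and not given by the labels. E11.5, E14.5 and E16.5 libraries, and forebrain and liver at P0, were of the first class (29 libraries with the numbered hindbrain P0 library). E10.5, E12.5 and E15.5 libraries, both midbrain P0 libraries and the unnumbered hindbrain P0 library were of the second (24), and the 8 E13.5 libraries lay between. Steps between neighbouring stages often coincide with the class, so change over time is given mainly between E11.5, E14.5, E16.5 and P0. In hindbrain P0, the only group with both classes, no member differed by more than 0.21 on the log2 scale between the 2 libraries. That sets 1 library against 1, and the sample record of the unnumbered one names E16.5. The part of the class cannot be told apart there. At E15.5 the regional markers went against the labels: 4 hindbrain Hox genes (Hoxa2, Hoxa5, Hoxb3, Hoxd3) summed to 289 to 301 TPM in the libraries labelled midbrain and to 0.62 to 1.07 TPM in those labelled hindbrain. At P0 the same sum was 0.5 to 0.82 TPM in midbrain and 161 to 162 TPM in hindbrain. For 4 columns of midbrain and hindbrain the stage in the column name differed from that in the sample record, and the column name was used. They carry no replicate number and are called unnumbered. Brain libraries also held transcripts of 7 genes listed as hepatocyte markers (Alb, Afp, Apoa1, Apoa2, Ttr, Fgb, Serpina1a). They summed to 138 to 819 TPM at E12.5, against 4.96 to 278 TPM at E11.5. The sums are not split by gene here, and the cells they came from were not tested. They are therefore no measure of liver cells or liver RNA in brain. At P0 that sum was 1799 to 2387 TPM in forebrain, 86.8 to 335 TPM in midbrain and 2310 to 2478 TPM in hindbrain.

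Camk2b had the largest rise of the 9 genes in every brain region, from the lowest level of the 9 at E10.5 to 1 of the 2 highest at P0. In forebrain the single E10.5 library had 0.58 TPM, and the 2 libraries of each later stage had 1.67 and 1.78 TPM at E11.5, 8.88 and 10.2 at E12.5, 37.6 and 36.3 at E13.5, 53.0 and 51.4 at E14.5, 133 and 126 at E15.5, 149 and 139 at E16.5, and 269 and 301 at P0. Every stage lay above the one before without overlap, in 7 of 7 steps, and the share of all genes doing so was not computed. In midbrain the libraries had 1.65 and 1.11 TPM at E10.5, 3.26 and 3.35 at E11.5, 11.3 and 13.35 at E12.5, 50.3 and 49.15 at E13.5, 79.7 and 84.5 at E14.5, 139 and 143 in those labelled E15.5, 124 and 177 at E16.5, and 206 and 204 at P0. In hindbrain they had 2.1 and 1.64 TPM at E10.5, 4.74 and 4.88 at E11.5, 12.9 and 16.49 at E12.5, 67.9 and 72.05 at E13.5, 82.7 and 84.55 at E14.5, 127 and 134 in those labelled E15.5, 133 and 145 at E16.5, and 175 and 167.5 at P0. The order of the regions turned round: hindbrain was highest and forebrain lowest at E11.5, and forebrain highest and hindbrain lowest at P0, with no overlap at either stage. Camk2b lies on chromosome 11 (5969644 to 6066362, minus strand, GRCm38; ENSMUSG00000057897.10).

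From E11.5 to P0 the Camk2b mean rose 165-fold in forebrain, 62.0-fold in midbrain and 35.6-fold in hindbrain. On the log2(TPM + 1) scale used for the tests, which understates the change of low genes, these were 6.71 ± 0.12 (SE), 5.58 ± 0.12 and 4.89 ± 0.12 in a limma fit over all libraries (Benjamini-Hochberg adjusted p = 7.2e-31, 9.3e-29 and 3.7e-27). A gene is called where the adjusted p is below 0.05 and the log2 fold change is at least 1 in size. Between E11.5 and E14.5 alone the rise was 4.29 ± 0.12 in forebrain, 4.27 ± 0.12 in midbrain and 3.86 ± 0.12 in hindbrain.

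Camk2a, the subunit most characteristic of the mature forebrain, rose in all 3 regions and stayed well below Camk2b at P0. In forebrain it had 7.19 TPM at E10.5, 11.3 and 12.7 at E11.5, 17.6 and 20.1 at E12.5, 21.4 and 20.4 at E13.5, 20.7 and 18.4 at E14.5, 31.7 and 26.1 at E15.5, 29.3 and 26.6 at E16.5, and 50.7 and 65.5 at P0. In midbrain it had 7.11 and 6.83 TPM at E10.5, 6.05 and 6.35 at E11.5, 9.47 and 9.2 at E12.5, 15.53 and 13.73 at E13.5, 16.04 and 15.01 at E14.5, 14.4 and 14.2 in the libraries labelled E15.5, 19.9 and 32.8 at E16.5, and 38.8 and 39.4 at P0. In hindbrain it had 4.38 and 5.47 TPM at E10.5, 4.74 and 4.13 at E11.5, 7.87 and 9.42 at E12.5, 12.3 and 12.3 at E13.5, 12.3 and 11.9 at E14.5, 21.7 and 22.55 in the libraries labelled E15.5, 14.45 and 15.45 at E16.5, and 23.2 and 22.5 at P0. The libraries labelled hindbrain E15.5 lay above both neighbouring stages, and those labelled midbrain E15.5 lay below both, at the stage where the regional markers are exchanged. The higher of the midbrain E16.5 libraries, 32.8 TPM, is the unnumbered one. The E11.5 to P0 change was called in each region, at 2.18 ± 0.14 in forebrain, 2.48 ± 0.14 in midbrain and 2.14 ± 0.14 in hindbrain (limma, adjusted p from 1.0e-17 to 8.9e-16). Camk2a lies on chromosome 18 (60925618 to 60988152, plus strand; ENSMUSG00000024617.12).

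Camk2d rose in all 3 regions and reached its highest levels in hindbrain. In forebrain it had 6.04 TPM at E10.5, 6.68 and 8.53 at E11.5, 11.58 and 13.99 at E12.5, 17.6 and 15.8 at E13.5, 23.5 and 21.9 at E14.5, 28.7 and 27.0 at E15.5, 30.4 and 29.9 at E16.5, and 53.4 and 46.9 at P0. In midbrain it had 6.26 and 5.87 TPM at E10.5, 9.23 and 8.23 at E11.5, 11.2 and 11.9 at E12.5, 19.5 and 18.65 at E13.5, 38.2 and 39.0 at E14.5, 76.0 and 77.7 in the libraries labelled E15.5, 66.5 and 87.7 at E16.5, and 93.5 and 97.1 at P0. In hindbrain it had 7.24 and 7.04 TPM at E10.5, 12.42 and 11.97 at E11.5, 18.2 and 17.9 at E12.5, 39.2 and 39.35 at E13.5, 60.5 and 67.8 at E14.5, 52.15 and 52.6 in the libraries labelled E15.5, 97.7 and 104 at E16.5, and 115 and 105 at P0. At P0 the 3 regions did not overlap, and hindbrain was highest. The E11.5 to P0 change was 2.58 ± 0.11 in forebrain, 3.31 ± 0.11 in midbrain and 3.07 ± 0.11 in hindbrain (limma, adjusted p from 6.5e-24 to 7.6e-21). Camk2d lies on chromosome 3 (126596302 to 126846326, plus strand; ENSMUSG00000053819.12) and shares its span with 1 annotated gene on the other strand.

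Camk2g was the highest of the 4 kinase genes at E10.5 and had the smallest rise of them. In forebrain it had 19.2 TPM at E10.5, 26.3 and 30.0 at E11.5, 31.6 and 36.5 at E12.5, 36.1 and 35.3 at E13.5, 37.5 and 37.1 at E14.5, 46.6 and 44.4 at E15.5, 52.3 and 47.4 at E16.5, and 78.4 and 72.6 at P0. In midbrain it had 20.2 and 18.1 TPM at E10.5, 26.7 and 28.2 at E11.5, 32.8 and 36.0 at E12.5, 43.7 and 41.0 at E13.5, 54.2 and 53.7 at E14.5, 74.4 and 74.8 in the libraries labelled E15.5, 59.7 and 79.5 at E16.5, and 88.0 and 84.1 at P0. In hindbrain it had 18.7 and 18.95 TPM at E10.5, 30.3 and 31.5 at E11.5, 36.4 and 41.2 at E12.5, 54.7 and 52.1 at E13.5, 56.2 and 66.2 at E14.5, 58.0 and 58.5 in the libraries labelled E15.5, 77.6 and 87.1 at E16.5, and 110.6 and 102 at P0. The regions started level, their libraries at E10.5 spanning 18.1 to 20.2 TPM, and were apart by P0 in the order hindbrain, midbrain, forebrain. The E11.5 to P0 change was 1.39 ± 0.10, 1.61 ± 0.10 and 1.75 ± 0.10 in forebrain, midbrain and hindbrain (limma, adjusted p from 7.0e-17 to 2.6e-14). Camk2g lies on chromosome 14 (20734875 to 20794088, minus strand; ENSMUSG00000021820.12).

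**Figure D1:**
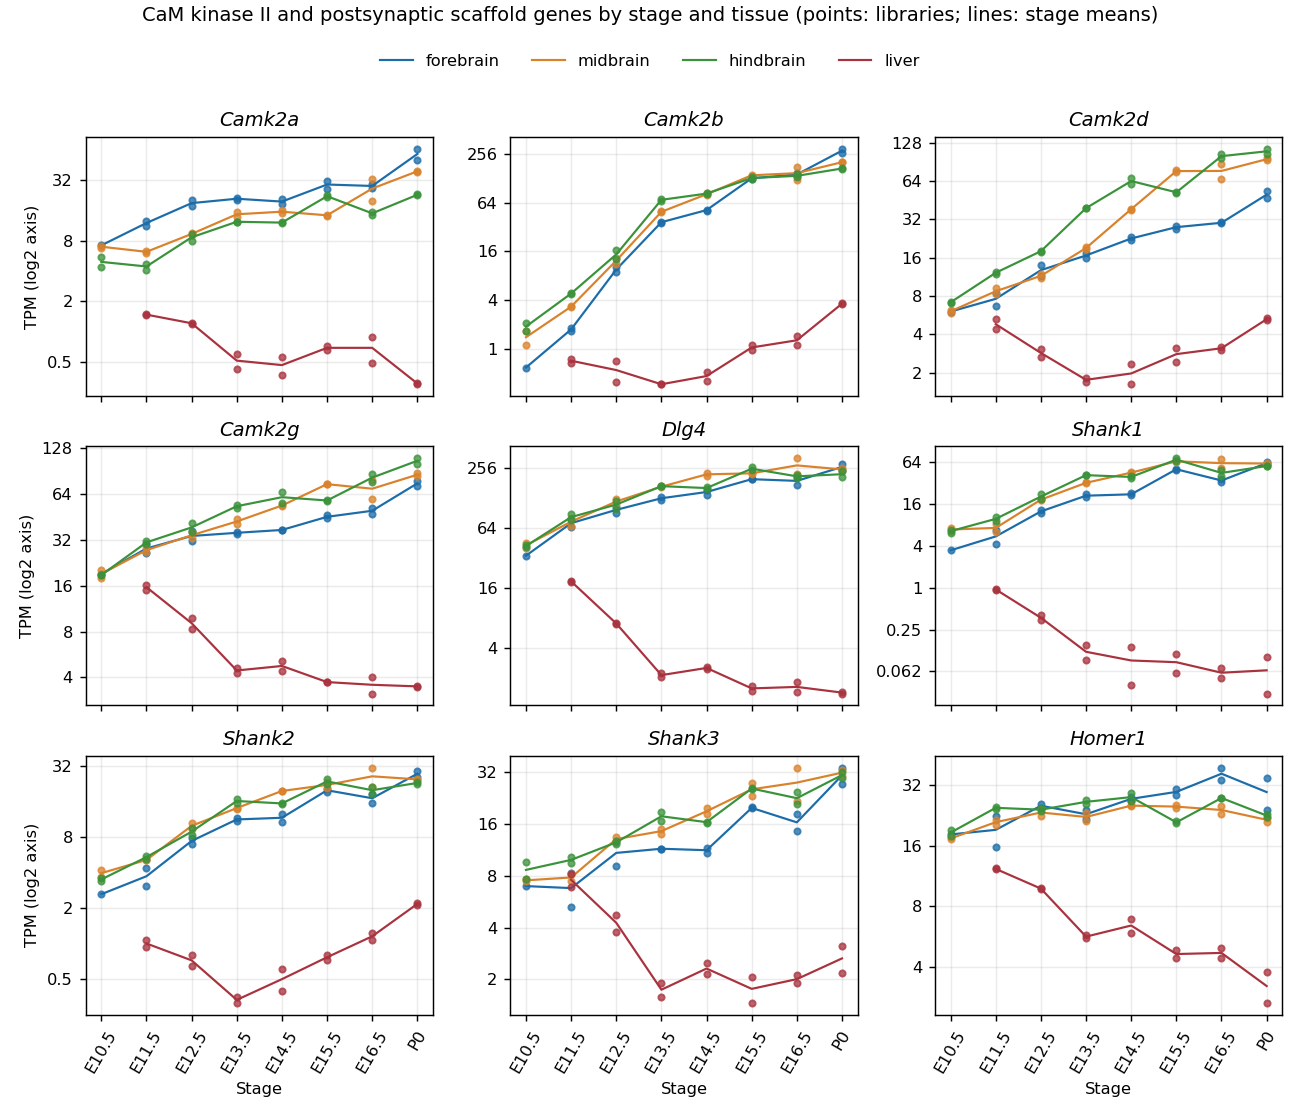
TPM on a log2 axis against stage for each of the 9 genes, with a point for each library, a line through the stage means, and a colour for each tissue. Camk2b climbs from 0.58 to 2.1 TPM at E10.5 to 167.5 to 301 TPM at P0 in the brain regions, Homer1 lies between 15.8 and 38.9 TPM in every brain library, and the liver lines lie below the brain lines at every shared stage, except for Shank3 at E11.5, where the liver libraries overlap those of forebrain and midbrain.

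The make-up of the kinase passed from Camk2g to Camk2b in all 3 brain regions, and the remaining share differed by region. Here a share is a gene's TPM as a percent of the summed TPM of the 4 genes, which TPM allows because it is corrected for length. Shares are a description with no test, and reads that match more than 1 of these similar genes could be divided between them in the authors' estimation. Camk2g held 57.0% ± 0.5 (SD, n = 2) of the sum in forebrain at E11.5, 60.1% ± 1.5 in midbrain and 59.0% ± 1.4 in hindbrain. Camk2b then held 3.496%, 7.23% and 9.19%. Camk2g was the largest share through E12.5 and Camk2b from E13.5 on, in each region. At E13.5 the libraries of the leading pair were still close in forebrain, with Camk2b at 33.4% and 33.7% and Camk2g at 32.1% and 32.8%.

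At P0 Camk2b held 60.8% ± 1.7 (SD, n = 2) in forebrain, 48.2% ± 0.2 in midbrain and 41.8% ± 0.7 in hindbrain. Camk2a held 12.35%, 9.19% and 5.57% in the same order, and Camk2d 10.7%, 22.4% and 26.8%. No 2 regions overlapped in any of these 3 shares at P0. Camk2a never held the largest share: its highest stage mean was 25.1% in forebrain at E12.5, 20.8% in midbrain at E10.5 and 15.01% in hindbrain at E10.5. In forebrain its share was 24.2% at E11.5 and 12.35% at P0, although its TPM rose. The libraries labelled hindbrain E15.5 had 8.4% Camk2a and 19.9% Camk2d against 4.44% and 29.9% at E16.5, and those labelled midbrain E15.5 had 4.66% and 25.1% against 8.05% and 23.97%. The summed TPM of the 4 genes went from 49.5 at E11.5 to 469 at P0 in forebrain, from 45.7 to 425 in midbrain and from 52.3 to 410 in hindbrain.

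**Figure D2:**
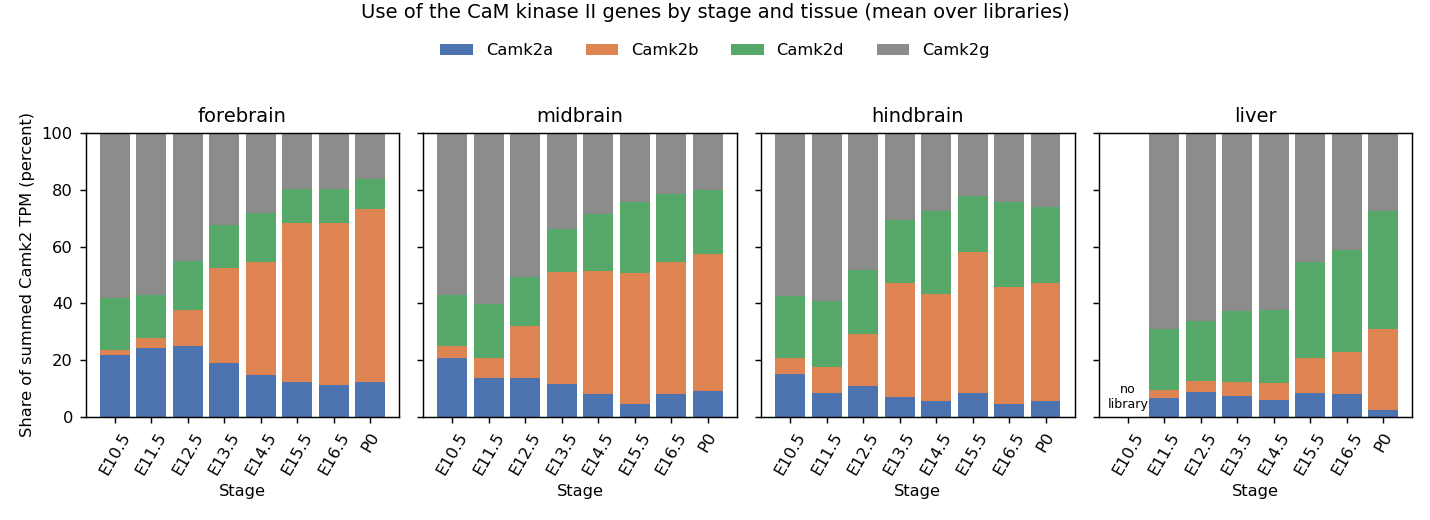
Stacked bars of the share of each CaM kinase II gene in the summed Camk2 TPM, in percent, by stage, with 1 panel for each tissue and each bar a mean over the libraries of the group. In brain Camk2g gives way to Camk2b between E12.5 and E13.5, while in liver Camk2g holds 69.2% at E11.5 and Camk2d 41.5% at P0.

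Dlg4, the scaffold that holds NMDA receptors, was the most abundant of the 9 genes at E11.5 in every tissue. In forebrain it had 33.8 TPM at E10.5, 65.2 and 78.35 at E11.5, 104 and 91.3 at E12.5, 122 and 133 at E13.5, 156 and 139 at E14.5, 198 and 199 at E15.5, 209 and 173 at E16.5, and 246 and 281 at P0. In midbrain it had 45.4 and 40.6 TPM at E10.5, 66.9 and 81.7 at E11.5, 111 and 126 at E12.5, 169.8 and 164 at E13.5, 229.5 and 215 at E14.5, 229 and 226 in the libraries labelled E15.5, 223 and 323 at E16.5, and 256 and 242 at P0. In hindbrain it had 41.6 and 43.0 TPM at E10.5, 76.4 and 88.8 at E11.5, 99.95 and 121 at E12.5, 169 and 169 at E13.5, 165 and 158 at E14.5, 246 and 261 in the libraries labelled E15.5, 205 and 219 at E16.5, and 239 and 207 at P0. In midbrain Dlg4 already stood at 89.2% of its P0 mean at E14.5, against 56.0% in forebrain. Its E11.5 to P0 change was 1.86 ± 0.12 in forebrain, 1.74 ± 0.12 in midbrain and 1.42 ± 0.12 in hindbrain (limma, adjusted p from 8.0e-16 to 1.2e-12). Dlg4 lies on chromosome 11 (70016942 to 70047522, plus strand; ENSMUSG00000020886.12).

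The 3 Shank genes rose together in brain and in the order Shank1, Shank2, Shank3 of size. Shank1 had 3.45 TPM in forebrain at E10.5, 4.23 and 6.71 at E11.5, 11.85 and 13.2 at E12.5, 22.2 and 19.9 at E13.5, 22.8 and 21.3 at E14.5, 51.1 and 50.0 at E15.5, 36.8 and 32.8 at E16.5, and 60.4 and 63.3 at P0. In midbrain Shank1 went from 6.27 and 8.23 TPM at E11.5 through 46.0 and 44.45 at E14.5 and 53.1 and 70.6 at E16.5 to 59.1 and 63.1 at P0. In hindbrain it went from 9.18 and 10.4 TPM at E11.5 through 37.7 and 40.7 at E14.5 and 40.3 and 49.3 at E16.5 to 56.85 and 55.6 at P0. Shank1 changed by 3.31 ± 0.13 in forebrain, 2.92 ± 0.13 in midbrain and 2.41 ± 0.13 in hindbrain from E11.5 to P0 (limma, adjusted p from 2.3e-22 to 2.3e-18). In forebrain all 3 Shank genes were lower at E16.5 than at E15.5 without overlap. None of the 3 differences was called (limma, Shank1 -0.53, adjusted p = 0.0025), beside 0.552% of all genes called lower. The share of all genes lower without overlap between these stages was not computed. These stages also differ in library class, and the part of the class was not tested at that step.

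Shank2 had 2.61 TPM in forebrain at E10.5, 3.09 and 4.33 at E11.5, 6.94 and 7.86 at E12.5, 11.53 and 11.01 at E13.5, 12.55 and 10.75 at E14.5, 19.3 and 20.6 at E15.5, 18.5 and 15.6 at E16.5, and 25.96 and 29.17 at P0. In midbrain it went from 5.07 and 5.14 TPM at E11.5 through 19.8 and 19.6 at E14.5 and 21.3 and 31.1 at E16.5 to 25.05 and 24.35 at P0. In hindbrain it went from 5.55 and 5.24 TPM at E11.5 through 15.33 and 15.51 at E14.5 and 18.7 and 21.3 at E16.5 to 22.4 and 23.6 at P0. Its change was 2.61 ± 0.12, 2.07 ± 0.12 and 1.91 ± 0.12 in forebrain, midbrain and hindbrain (limma, adjusted p from 3.5e-20 to 2.9e-16). Shank3, the member whose loss causes Phelan-McDermid syndrome in people, had 6.96 TPM in forebrain at E10.5, 5.3 and 8.25 at E11.5, 12.54 and 9.14 at E12.5, 11.47 and 11.45 at E13.5, 10.9 and 11.6 at E14.5, 19.65 and 19.9 at E15.5, 18.2 and 14.4 at E16.5, and 27.2 and 33.9 at P0. In midbrain Shank3 went from 7.47 and 8.15 TPM at E11.5 through 19.7 and 18.1 at E14.5 and 21.7 and 33.7 at E16.5 to 30.4 and 32.9 at P0, and in hindbrain from 9.43 and 10.3 through 16.46 and 16.22 and 20.69 and 24.32 to 31.8 and 29.5. Its change was 2.04 ± 0.17, 1.89 ± 0.17 and 1.54 ± 0.17 (limma, adjusted p from 4.0e-13 to 4.2e-10). At P0 the Shank3 libraries of the 3 regions overlapped.

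Shank1 (44310253 to 44360572) and Shank2 (144001928 to 144424494) lie on the plus strand of chromosome 7, and Shank3 (89499623 to 89560261) on the plus strand of chromosome 15 (ENSMUSG00000038738.11, ENSMUSG00000037541.15 and ENSMUSG00000022623.11). Each overlaps 1 or 2 annotated genes on the other strand. The library kit keeps strand, but whether the counting used it is not given in the sources used here.

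Homer1 was the member with no called change from E11.5 to P0 in brain. In forebrain it had 18.2 TPM at E10.5, 15.8 and 22.5 at E11.5, 24.6 and 25.8 at E12.5, 21.72 and 23.99 at E13.5, 27.9 and 26.55 at E14.5, 28.6 and 30.4 at E15.5, 33.6 and 38.9 at E16.5, and 24.1 and 34.7 at P0. In midbrain every library lay between 17.15 and 25.4 TPM, and in hindbrain between 17.9 and 29.0 TPM. Its E11.5 to P0 change was 0.59 ± 0.12 in forebrain (adjusted p = 3.9e-05), 0.04 ± 0.12 in midbrain (adjusted p = 0.81) and -0.12 ± 0.12 in hindbrain (adjusted p = 0.37), called in none by limma. Homer1 also makes a short transcript after neuronal activity, which lacks the part that links Homer1 molecules; the table gives 1 value for the gene, so its forms are not separated. Homer1 lies on chromosome 13 (93299635 to 93405129, plus strand; ENSMUSG00000007617.13).

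At E11.5 the order of levels was the same at the top in all 3 brain regions, with Dlg4 above Camk2g and Camk2g above Homer1 without overlap between libraries. At P0 Camk2b and Dlg4 led everywhere: they overlapped in forebrain, with means of 285 and 264 TPM, while in midbrain Dlg4 (249) lay above Camk2b (205) and in hindbrain Dlg4 (223) above Camk2b (171). In forebrain Camk2g followed at 75.5 TPM, then Shank1 (61.8), Camk2a (58.1) and Camk2d (50.2), whose neighbours overlapped, then Shank3 (30.6), Homer1 (29.4) and Shank2 (27.6), which also overlapped. In midbrain all 9 levels were apart, in the order Dlg4, Camk2b, Camk2d, Camk2g, Shank1, Camk2a, Shank3, Shank2, Homer1. In hindbrain Camk2d and Camk2g overlapped, at 110 and 106 TPM, and Camk2a (22.9) was level with Shank2 (23.035) and Homer1 (22.5).

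Taken over the whole interval, 8 of the 9 genes were called higher at P0 than at E11.5 in forebrain, in midbrain and in hindbrain, all but Homer1. The median log2 fold change of the 9 genes was 2.18, 2.07 and 1.91, beside medians over all genes tested of 0.02, -0.01 and -0.02. Of all genes tested, 19.2% were called higher in forebrain, 18.3% in midbrain and 16.2% in hindbrain. Over all genes called in forebrain the split was 3578 higher and 2194 lower, and 2948 and 2756 after quantile normalization. For the members called, the 2 P0 libraries lay above the 2 E11.5 libraries in each region. That follows largely from the call on the same libraries and is no further support. The forebrain libraries of both stages are of the first class. In hindbrain only the numbered P0 library is of that class, so no count is taken from that class alone. In midbrain the E11.5 libraries are of the first class and both P0 libraries of the second. There the change over time and the class cannot be told apart.

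Markers of cell types moved over the same interval. The summed TPM of 9 neuron markers (Tubb3, Stmn2, Snap25, Syt1, Rbfox3, Map2, Elavl3, Elavl4, Nefl) went from 1312 to 1316 at E11.5 to 5333 to 5845 at P0 in forebrain, from 1967 to 2079 to 6283 to 6340 in midbrain, and from 2614 to 2783 to 5566 to 5612 in hindbrain. That of 7 progenitor markers went from 3017 to 3062 to 396 to 426 TPM in forebrain, from 3139 to 3214 to 388 to 410.0 in midbrain, and from 2522 to 2613 to 647 to 729 in hindbrain. None of these markers was at 0. Of 6 astrocyte markers, 6 were called higher in forebrain (median 4.07) and 5 each in midbrain (3.95) and hindbrain (5.13). Of 7 erythroid markers 6 were called lower in each region, and of 5 fibroblast markers 4. Of all genes, 11.8% were called lower in forebrain, 15.1% in midbrain and 11.8% in hindbrain. In forebrain 1 erythroid and 1 fibroblast marker were called higher. Of the 7 genes listed as hepatocyte markers, whose source in brain was not tested, 4 were called higher in forebrain (median 1.53), 2 in midbrain and 1 in hindbrain. In bulk tissue more neurons and more RNA per neuron cannot be told apart, and the part of cell make-up in the rise was not tested.

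**Figure D3:**
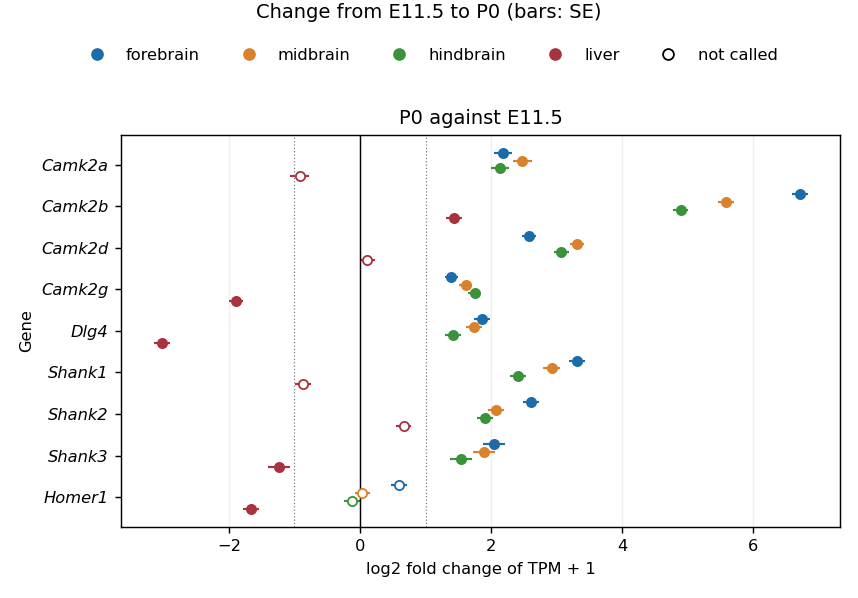
Log2 fold change of TPM + 1 from E11.5 to P0 for each gene and tissue, with bars of 1 SE, filled points for called genes and open points for the rest. Camk2b reaches 6.71 in forebrain, Homer1 stays within 0.59 of 0 in the brain regions, and in liver Dlg4 reaches -3.02 while Camk2b is at 1.43.

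In each region the rise continued after E14.5, with 6 of the 9 genes called higher from E14.5 to P0 in forebrain, 3 in midbrain and 1 in hindbrain, beside 10.5%, 6.09% and 4.4% of all genes. In forebrain these were Camk2b (2.43 ± 0.12), Camk2a (1.51 ± 0.14), Shank1 (1.45 ± 0.13), Shank3 (1.36 ± 0.17), Shank2 (1.18 ± 0.12) and Camk2d (1.11 ± 0.11), with Camk2g at 0.997 ± 0.10. In midbrain they were Camk2b (1.31 ± 0.12), Camk2d (1.28 ± 0.11) and Camk2a (1.28 ± 0.14), and in hindbrain Camk2b (1.03 ± 0.12). From E11.5 to E14.5, 7 of the 9 genes were called higher in midbrain and 5 each in forebrain and hindbrain, beside 12.6% of all genes in midbrain, 8.67% in forebrain and 10.2% in hindbrain. Camk2b, Camk2d, Shank1 and Shank2 were called in all 3 regions, Camk2a in midbrain (1.198 ± 0.14) and hindbrain (1.27 ± 0.14), Dlg4 in midbrain (1.57 ± 0.12) and forebrain (1.03 ± 0.12), and Shank3 in midbrain (1.18 ± 0.17). Values close to the threshold decide some of these calls: Dlg4 in hindbrain was at 0.96 and Camk2g at 0.95 in midbrain and 0.96 in hindbrain. Within the later span, from E14.5 to E16.5 only Camk2b in forebrain was called, at 1.45 ± 0.12, beside 1.39% of all genes higher in forebrain, 1.63% in midbrain and 1.37% in hindbrain. In that interval limma's unadjusted p was below 0.05 for 8 of the 9 genes in midbrain and 7 in hindbrain. The share of all genes below that p was not computed, here or for the like counts further on. Such counts are no result about the members as a set, and say only that a gene not called may still have changed.

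From E16.5 to P0 only Camk2a in forebrain was called, at 1.02 ± 0.14 (limma, adjusted p = 1.6e-07), beside 3.82% of all genes higher there. None was called in midbrain or hindbrain, beside only 2.84% and 1.24% of all genes called there in either direction. In these regions 4 and 6 of the 9 had an unadjusted p below 0.05 in limma. Camk2b in forebrain was just under the threshold at 0.98 ± 0.12. The forebrain libraries of Homer1 at E16.5 and P0 overlapped. The E14.5 mean of Camk2b was 18.3% of its P0 mean in forebrain, 40.0% in midbrain and 48.8% in hindbrain, and that of Shank1 35.6%, 74.0% and 69.7%. The difference between regions within these intervals was not tested. In midbrain the steps from E14.5 and E16.5 to P0 also join libraries of different class.

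**Figure D4:**
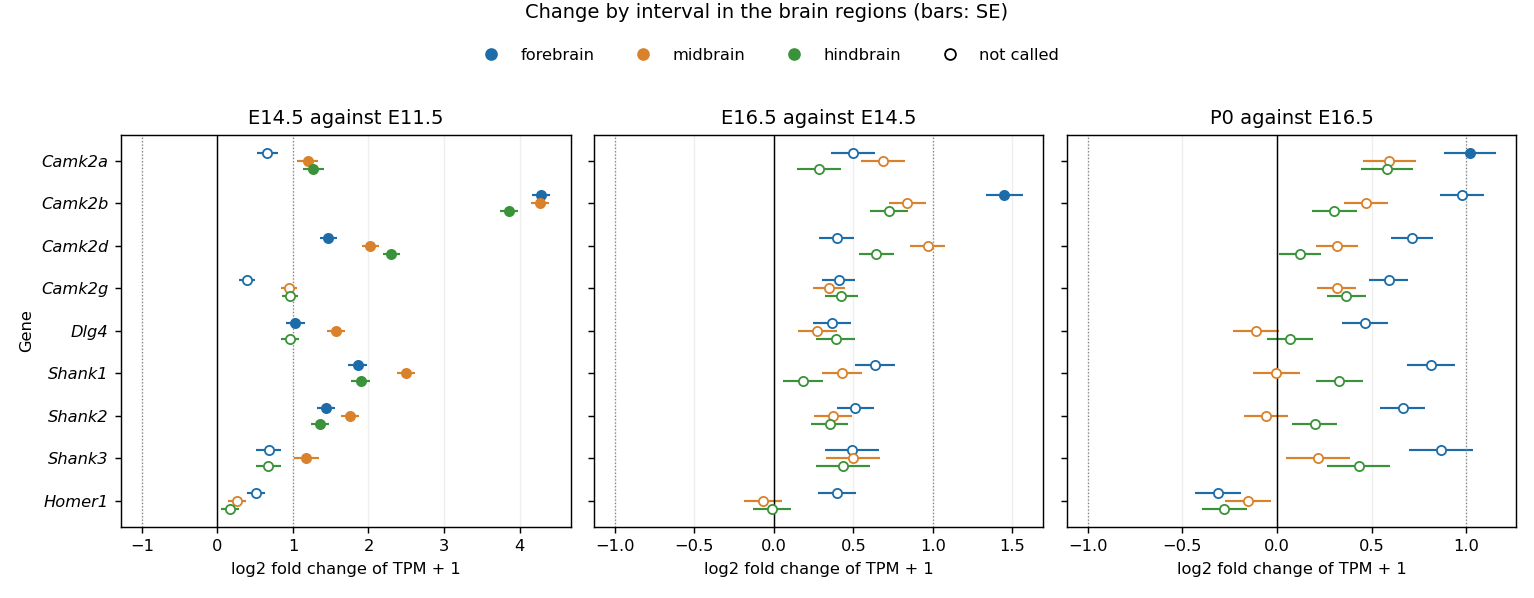
Log2 fold change of TPM + 1 in the intervals E11.5 to E14.5, E14.5 to E16.5 and E16.5 to P0 for each gene in the brain regions, with bars of 1 SE, filled points for called genes and dotted lines at a log2 fold change of 1. Camk2b leads the early interval at 3.86 to 4.29, and Camk2a in forebrain is the called point of the last interval at 1.02.

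At P0 the members called between regions were the kinase genes Camk2a and Camk2d. Camk2a was higher in forebrain (50.7 and 65.5 TPM) than in hindbrain (23.2 and 22.5 TPM), by 1.30 ± 0.14 (limma, adjusted p = 2.6e-09). Camk2d was lower in forebrain (53.4 and 46.9 TPM) than in hindbrain (115 and 105 TPM), by -1.12 ± 0.11 (adjusted p = 5.4e-10). These were the only 2 members called between forebrain and hindbrain, where 4.81% of all genes were called in either direction. Camk2b was at 0.73 ± 0.12 and Camk2g at -0.49 ± 0.10, and the 5 scaffold genes lay between -0.01 and 0.35. Averaged with equal weight over E11.5 to P0, Camk2d alone was called, at -1.07 ± 0.04 (4.32% of all genes), and Camk2a was at 0.88 ± 0.05. Quantile normalization moved the split of all called genes from 311 higher and 586 lower in forebrain to 382 and 447 at P0, and from 193 and 612 to 290 and 440 in the average.

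Between forebrain and midbrain at P0 no member was called (3.84% of all genes), with 4 of the 9 at an unadjusted p below 0.05. Camk2d came closest at -0.91 ± 0.11, and was at -1.01 without forebrain replicate 1. It was called at -1.05 with library class as a term in the fit. That term rests on the hindbrain P0 pair, the only group with both classes, of which 1 library is unnumbered. At P0 forebrain is wholly of the first class and midbrain of the second, so region and class cannot otherwise be told apart. No member was called between midbrain and hindbrain at P0 (2.81%), where Camk2a was at 0.75 ± 0.14 and 3 of the 9 had an unadjusted p below 0.05, or in the averages between forebrain and midbrain (2.73%) and between midbrain and hindbrain (0.97%). In these averages, limma's unadjusted p was below 0.05 for 9 and 6 of the 9 genes. The share of all genes at that p was not computed for any of these comparisons. The average of Camk2a between midbrain and hindbrain was 0.28 ± 0.05 with all libraries and 0.43 without the libraries labelled E15.5. With quantile normalization the split of all called genes went from 115 higher and 410 lower in midbrain against hindbrain at P0 to 144 and 287, and from 179 and 331 in the average of forebrain against midbrain to 223 and 248.

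Glial markers also differed by region at P0. The sum of 6 astrocyte markers was 559 to 619 TPM in forebrain, 803 to 815 in midbrain and 1851 to 1929 in hindbrain, and that of 6 oligodendrocyte lineage markers 132 to 158, 187 to 191 and 377 to 387. Of the 7 genes listed as hepatocyte markers, 4 were called higher at P0 in forebrain than in midbrain (median 2.23) and 3 higher than in hindbrain (median 1.23). The cells these transcripts came from were not tested. The part of these transcripts in the regional differences of Camk2a and Camk2d was not tested.

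The rise of Camk2b from E11.5 to P0 was itself larger in forebrain than in the other regions. The difference of the 2 changes was 1.82 ± 0.17 between forebrain and hindbrain (limma interaction, adjusted p = 1.8e-10) and 1.13 ± 0.17 between forebrain and midbrain (adjusted p = 4.25e-06). The latter was just under the threshold with median-of-ratios scaling (0.9993) and with quantile normalization (0.96). It also sets a forebrain change within the first class against a midbrain change that joins both classes, and the part of the class cannot be told apart. Camk2b was the only member called in both comparisons, beside 7.96% and 5.0% of all genes. For forebrain against midbrain the split of all genes called was 609 larger in forebrain and 323 smaller, and 451 and 403 after quantile normalization. Shank1 was at 0.90 ± 0.18 between forebrain and hindbrain and was called, at 1.18, without forebrain E11.5 replicate 2. None was called between midbrain and hindbrain (4.72% of all genes). Camk2b was at 0.69 ± 0.17 there (limma, adjusted p = 0.0022). An unadjusted p below 0.05 was reached by 2 of the 9, and the share of all genes was not computed.

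In liver the kinase and scaffold genes were low, and their course differed from that in brain. Dlg4 fell from 19.05 and 18.3 TPM at E11.5 through 7.07 and 7.03 at E12.5 to 2.05 and 2.22 at E13.5 and stood at 1.46 and 1.39 at P0. Camk2g fell from 15.05 and 16.3 TPM at E11.5 through 8.3 and 9.89 at E12.5 and 4.62 and 4.27 at E13.5 to 3.48 and 3.51 at P0. Homer1 fell from 12.2 and 12.3 TPM at E11.5 to 2.66 and 3.8 at P0, and Shank3 from 6.9 and 8.23 to 3.13 and 2.17. These 4 were called lower, at -3.02 ± 0.12, -1.89 ± 0.10, -1.66 ± 0.12 and -1.24 ± 0.17 (limma, adjusted p from 6.9e-22 to 3.1e-08), beside 38.2% of all genes. Camk2b went the other way, from 0.66 and 0.75 TPM at E11.5 and 0.36 in each library at E13.5 to 0.97 and 1.09 at E15.5, 1.11 and 1.42 at E16.5 and 3.63 and 3.57 at P0. It was the only member called higher in liver, at 1.43 ± 0.12 (adjusted p = 2.4e-13), beside 8.14% of all genes.

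Camk2d in liver was 5.24 and 4.37 TPM at E11.5, 1.83 and 1.68 at E13.5 and 5.34 and 5.18 at P0, and its change of 0.11 ± 0.11 was not called. Shank2 was 0.92 and 1.07 TPM at E11.5, 0.31 and 0.35 at E13.5 and 2.11 and 2.21 at P0, at 0.66 ± 0.12, not called. Camk2a was 1.45 and 1.5 TPM at E11.5 and 0.31 and 0.3 at P0, and Shank1 0.92 and 0.97 and then 0.03 and 0.1. Both were not called with 1 added to each TPM (-0.92 and -0.87) and were called lower with 0.1 added (-1.96 and -2.70) or 0.5 added (-1.29 and -1.36). The liver calls depend on scaling, because the median of all genes was -0.69 from E11.5 to P0 and -0.01 after median-of-ratios scaling. The split of all called genes was then 3147 higher and 1561 lower, against 1519 and 7120. With that scaling Camk2b (2.44) and Dlg4 (-2.23) stayed called, Camk2d (1.16) and Shank2 (1.58) became called higher, and Camk2g (-0.91), Shank3 (-0.31) and Homer1 (-0.70) were no longer called. After quantile normalization, Shank2 (1.23) became called, and Shank3 (-0.62) and Homer1 (-0.97) were no longer called.

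The order of the kinase genes in liver passed from Camk2g to Camk2d. Camk2g held 69.2% ± 2.8 (SD, n = 2) of the Camk2 sum at E11.5, 62.9% at E13.5, 45.3% at E15.5 and 27.6% ± 0.5 at P0. Camk2d went from 21.2% ± 3.1 to 41.5% ± 0.4 and Camk2b from 3.11% ± 0.23 to 28.4%, and Camk2a held 6.51% at E11.5 and 2.41% at P0. A share does not depend on a scaling factor of the whole library. The sum itself was 22.7 TPM at E11.5, 7.08 at E13.5 and 12.7 at P0. Camk2g was the largest share at every liver stage through E16.5, and Camk2d at P0.

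Other transcripts in the liver libraries moved over the same stages. The 9 neuron markers summed to 15.2 to 15.3 TPM at E11.5, 18.85 to 40.1 at E12.5 and 5.95 to 8.03 at P0, with 4 of 9 at 1 TPM or more in both libraries at E11.5 and 2 of 9 at P0, and none at 0. The 5 fibroblast markers summed to 488 to 524 TPM at E11.5 and 231 to 272 at P0, the 10 muscle markers to 132 to 179 and 51.1 to 63.7, and the 4 hindbrain Hox genes to 22.2 to 22.55 and 1.43 to 2.25. The 7 erythroid markers summed to 50667 to 56166 TPM at E11.5, 387593 to 388804 at E15.5 and 108712 to 115117 at P0, and the 7 hepatocyte markers to 11793 to 12775 at E11.5 and 126492 to 129011 at P0. The part of these in the liver values was not tested.

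Set against liver, all 9 genes were called higher in the brain average over E11.5 to P0, by 1.85 ± 0.04 for Homer1 to 5.22 ± 0.04 for Dlg4 (limma), beside 44.0% of all genes. The median of the 9 was 2.9997 and that of all genes 0.82. With median-of-ratios scaling the median of all genes was 0.02, the split of called genes went from 8203 higher and 1740 lower to 4162 and 4046, and Homer1 at 0.76 was no longer called. The E11.5 to P0 change was also called larger in brain than in liver for all 9 genes, beside 38.6% of all genes, led by Dlg4 at 4.69 ± 0.14 and Camk2b at 4.30 ± 0.14. Here the split of all called genes went from 7194 higher and 1738 lower to 3533 and 3683 with median-of-ratios scaling, and Shank2 (0.67) and Homer1 (0.97) were no longer called.

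Other genes of the excitatory synapse were read as 4 lists. Of 12 glutamate receptor genes, 12 were called higher from E11.5 to P0 in forebrain, 11 in midbrain and 12 in hindbrain. Their medians of 3.74, 3.87 and 3.41 lay above those of the kinase and scaffold genes and of all genes. Grm5, the metabotropic receptor that Homer1 binds, went from 0.11 to 0.18 TPM to 46.2 to 65.3 TPM in forebrain (5.61 ± 0.12), and Grin1, the obligate NMDA receptor subunit, from 0.88 to 0.96 to 72.7 to 74.5 TPM (5.28 ± 0.13). Gria1 and Grin2b rose by 4.87 ± 0.11 and 4.603 ± 0.14.

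Of 18 genes of calmodulin and its kinases and phosphatase, 16 were called higher in forebrain, 16 in midbrain and 14 in hindbrain, none lower, with medians of 1.86, 1.77 and 1.52. Pcp4 (5.77 ± 0.23) and Nrgn (4.99 ± 0.30), small proteins that bind calmodulin, rose most in forebrain, followed by Camkv (3.91 ± 0.13) and Gap43 (3.69 ± 0.11). Ppp3cb, a calcineurin catalytic subunit, was at 0.94 ± 0.09 and not called, but was called without forebrain E11.5 replicate 2 (1.11) or without forebrain P0 replicate 1 (1.08). Nrgn reached 95.5 to 177 TPM in forebrain at P0, 88.9 to 90.6 in midbrain and at most 27.3 in hindbrain.

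Of 22 other scaffold and signalling genes of the postsynapse, 14 were called higher and 1 lower in forebrain, 10 and 2 in midbrain, and 11 and 1 in hindbrain, with medians of 1.59, 0.85 and 0.99. Dlg2, the paralog of Dlg4 also known as PSD-93, rose by 5.13 ± 0.13 in forebrain, from 1.73 to 2.49 TPM to 94.9 to 120 TPM. Dlgap1 (4.54 ± 0.13), Agap2 (4.31 ± 0.12) and Dlgap3 (3.31 ± 0.13) followed. Pick1 (0.56 ± 0.10) and Dlg3 (-0.07 ± 0.10), both already at 37.6 TPM or more at E11.5, were not called. Of 10 synaptic adhesion genes, 8 were called higher and 1 lower in forebrain, 8 and 0 in midbrain, and 9 and 0 in hindbrain, with medians of 2.62, 2.90 and 2.30. Among those that rose in forebrain were Lrrtm2 (2.98 ± 0.10), Nrxn2 (2.94 ± 0.15) and Lrrtm3 (2.89 ± 0.18), and Nlgn2, a neuroligin of inhibitory synapses, was at 0.94 ± 0.12 and not called, or called at 1.09 and 1.01 without the same libraries in turn. These lists were chosen with earlier results of these data known.

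The members differed in how closely they followed each other over the 24 brain groups. Pearson's r of the group means of log2(TPM + 1) was 0.992 between Shank1 and Shank2, 0.988 between Camk2b and Shank2, and 0.975 between Camk2d and Camk2g. Camk2a was less like the others, with r from 0.657 (Camk2d) to 0.814 (Camk2b) apart from Homer1, and Homer1 least, with r from 0.469 (Shank3) to 0.671 (Camk2b). These values describe groups that share the course of development and carry no p. Among 11346 other genes, the nearest in pattern was Lrrc55 for Camk2b (r = 0.996), Arl8a for Shank1 (0.996), Zrsr1 for Camk2d (0.994), Trim46 for Dlg4 (0.994), Agap2 for Shank2 (0.993), Eno2 for Camk2g (0.991), Dagla for Shank3 (0.991), Shc3 for Camk2a (0.929) and Cdk19 for Homer1 (0.920).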

How the data were processed

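Polyadenylated RNA was read with a strand-keeping mRNA kit from total RNA, per the labels' protocols. The authors deposited 1 table of TPM values per gene, and STAR 2.4.0k, RSEM 1.2.23 and build mm10 are named in the submitters' processing notes. TPM keeps no depth, so sequencing depth is unknown and no counting interval is given; between 12104 and 15561 genes reached 1 TPM per library. Symbols and coordinates came from GENCODE M21 (42462 of 43346 gene IDs matched) and promoters from RefSeq. Camk2g, Shank1 and Shank2 had no entry in the promoter table, and no Camk2a sequence is shown.

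Values were tested as log2(TPM + 1) computed from the deposited TPM, with limma 3.58.1 in R 4.3.3: 1 mean for each tissue and stage over all 61 libraries (30 residual degrees of freedom), a mean-variance trend, a filter of 1 TPM in 2 libraries or more, and Benjamini-Hochberg adjustment over 18655 genes within each comparison. The test was checked on simulated data. The 9 genes, the 4 synapse lists and the marker lists were chosen with earlier results of these data known. The named-gene rule took all 9 members and, of each synapse list, up to 4 called genes with the largest forebrain change from E11.5 to P0 and up to 2 not called with the highest TPM, and some genes this rule takes are not reported here. Likeness was read over genes whose brain mean was 5 TPM or higher. The comparisons over E11.5 to E14.5, E14.5 to E16.5 and E14.5 to P0, and the use of library class, were chosen after seeing the data. Libraries of a group differed in at least 91.87% of values, so none is a copy. Other pseudocounts, filters, scalings, fits and sets of libraries were tried.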

Additional observations from a re-analysis of the deposited data

Results flagged for a closer look

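For 11 results the change from E11.5 to P0 differed between tissues by a limma test of the difference itself. For Camk2b the change was larger in forebrain than in midbrain by 1.13 on the log2(TPM + 1) scale (0.9993 and not called with median-of-ratios scaling). It was larger than in hindbrain by 1.82. Of all genes, 5.0% and 7.96% were called in either direction. The midbrain change joins libraries of both classes. Between the brain average and liver, the difference was 3.19 for Camk2a, 4.3 for Camk2b, 2.87 for Camk2d, 3.48 for Camk2g, 4.69 for Dlg4, 3.75 for Shank1, 1.53 for Shank2, 3.06 for Shank3 and 1.83 for Homer1, beside 38.6% of all genes called larger in brain. With median-of-ratios scaling Shank2 (0.67) and Homer1 (0.97) were no longer called.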

How the results depend on the processing

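Of 256 recomputations of the main results, each of 1 result under 1 other setting, 229 were scored as staying and 27 as moved. With 1 library left out, 270 of 272 were scored as staying and 2 as moved. These results are counts of members called and shares, for which no reversal could be scored. The shares come from groups of 2 libraries, where leaving 1 out always shifts the mean by less than the SD. By the rule that follows, those shares could only be scored as staying, so they are no support for stability. A share counted as moved where its mean shifted by more than the SD, however small that SD was. Camk2g in hindbrain at P0, for example, was scored as moved from 25.9% to 25.6% with quantile normalization. For the counts of members called, a small shift, or a change in which genes were called, did not count as a move. That held for the liver count from E11.5 to P0 with median-of-ratios scaling. There Camk2g, Shank3 and Homer1 lost their call, and Camk2d and Shank2 became called. The members called in liver from E11.5 to P0 became 8 with a pseudocount of 0.1. Between forebrain and midbrain at P0, 1 member was called with library class as a term and 0 to 1 with 1 library left out. In the difference of change between forebrain and midbrain, 0 were called with median-of-ratios scaling and 0 with quantile normalization, and between forebrain and hindbrain 1 to 2 with 1 library left out. With quantile normalization the share of Camk2b was 4.26% and that of Camk2g 55.1% in forebrain at E11.5, and Camk2b 62.8% at P0. In midbrain Camk2a was 14.01% and Camk2b 7.82% at E11.5, and Camk2a 8.71%, Camk2b 49.9% and Camk2g 19.6% at P0. In hindbrain at P0 Camk2a was 4.96%, Camk2b 42.8% and Camk2g 25.6%. In liver Camk2a was 7.74%, Camk2b 3.83% and Camk2g 65.6% at E11.5, and Camk2a 3.63%, Camk2b 28.0% and Camk2d 41.1% at P0. With the 4 differing columns given the stage of their record, midbrain P0 had 8.91% Camk2a, 47.6% Camk2b and 20.9% Camk2g, and hindbrain P0 4.94% Camk2a, 28.4% Camk2d and 25.4% Camk2g. The cause of these shifts was not tested.

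Over all genes, the count called moved by more than 1.5 times for liver (8639, against 4708 with median-of-ratios scaling and 4822 with quantile normalization). With a pseudocount of 0.1 it moved from 510 to 1077 and 716 to 1307 (forebrain against midbrain, average and P0), 181 to 467 and 525 to 959 (midbrain against hindbrain), 805 to 1709 and 897 to 1508 (forebrain against hindbrain), and, for the differences of change in the same order, 932 to 1545, 881 to 1464 and 1485 to 2318. The average of midbrain against hindbrain gave 328 without the libraries labelled E15.5 and 348 with first-class libraries alone. The latter averages over E11.5, E14.5 and E16.5 and leaves out P0, so it also differs in stages. The replicate block left the number of members called unchanged in all 15 comparisons (8 in forebrain, and 5772 against 5775 genes there). Same-numbered libraries did not deviate together as a rule: of 325 correlations between 26 replicate pairs, 27 were above 0.1, with a median of 0.003. The correlations ranged from -0.63 to 0.32, so some pairs did share a deviation, with the same or the opposite number. First-class libraries alone could not be used for midbrain at P0, which has none.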
